A study of Mus musculus with 3 samples.

Results

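The 10 Wnt ligand genes Wnt2, Wnt2b, Wnt3, Wnt3a, Wnt4, Wnt5a, Wnt5b, Wnt6, Wnt9b and Wnt11 were followed through single cells of the Mesp1 lineage of mouse embryos with 1 or 2 floxed alleles of Wls, the gene of the Wnt export protein. The members were taken by symbol from the 51923 genes of the count matrix, and all 10 had at least 1 count. A further 9 Wnt ligand genes are in the matrix and were used only as a pathway list.

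Wnt proteins are lipid-modified signals that act over short distances on cells carrying Frizzled receptors. Their lipid is added by Porcn, and Wls then carries the modified protein to the cell surface, so a cell without Wls can transcribe a ligand that it cannot release efficiently. Wnt3 and Wnt3a are best known for signalling through beta-catenin in the primitive streak and tail bud. Wnt5a and Wnt11 are best known for beta-catenin-independent signalling that directs cell movement, Wnt11 being a marker of the forming heart and Wnt2 of the inflow region of the early heart tube.

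The embryos carried Mesp1-Cre, which is active in early mesoderm that forms most of the heart and the head mesoderm, and the Ai9 reporter, which turns such cells red, on a C57BL/6 background. Controls were Mesp1-Cre; Ai9; Wls fl/+, so they carried Cre and 1 floxed Wls allele as well, and mutants were Mesp1-Cre; Ai9; Wls fl/fl. Embryos staged E8.0, E8.5 or E9.5 (days of gestation) were dissociated, tagged with MULTI-seq barcodes (DNA tags anchored in the cell membrane) and sorted for the red reporter, and the cells went into 10x Chromium v3 droplets. The unit compared was the barcode sample, that is all cells with 1 barcode, and whether a barcode stood for 1 embryo is not given. The p-values therefore measure the spread between barcode samples, which may be partly technical.

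There were 14777 cells and 331587989 UMIs (counts of single mRNA molecules) in 22 barcode samples, 10 mutant and 12 control, with a median of 21739 UMIs a cell and 134457 to 61307782 UMIs a sample. At E8.0 there were 3 mutants and 3 controls, at E8.5 1 mutant and 2 controls, and at E9.5 6 and 6. One control of 28 cells is labelled E7.5, and 64.3% of its cells carried erythroid markers. Run 1 held every E8.0 sample, run 2 every E8.5 sample, and E9.5 was spread over the 3 runs, whose median depths were 23112, 23555 and 11866 UMIs a cell. At E8.0 the mutants were male (98.3% to 99.1% of sexed cells) and the controls female or mixed (2.16% to 53.1% male). Sex and genotype therefore cannot be told apart at that stage. At E9.5 in run 1 the controls Bar22 and Bar23 were female, while the mutants Bar19 and Bar21 were male and Bar20 female. Sex and genotype were thus partly linked there too. Run 2 had the female control Bar4, the male control Bar6 and the male mutant Bar5. In run 3 the control Bar7 was male, and the control Bar9 and the mutants Bar8 and Bar10 were female. The mixed E8.0 sample, Bar29, held cells of both sexes and so of more than 1 embryo, and went against its control label in part. A Wls UMI was found in 74.3% of its 214 female cells and 16.1% of its 242 male cells, at median depths of 28937 and 26300 UMIs. The female cells of the other E8.0 controls had 66.8% and 60.8%, and the male cells of the E8.0 mutants 11.1% to 13.9%. Bar29 was kept as labelled in the fits, and results that rest on it are also given without it, a step added after seeing the data. An E9.5 control of 6 cells is left out of means and ranges but not of the fits, and 23 cell barcodes occurred in more than 1 run. Wls itself was lower in every mutant than in any control of the same stage, with a fitted log2 fold change of -2.38 (SE 0.15, edgeR adjusted p = 3.93e-09), or -2.40 without Bar29.

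A few ligands carried most of the counts. Wnt2 had 19106 UMIs, in 26.9% of cells, Wnt5a 13497 UMIs in 40.5% and Wnt4 5077 UMIs in 12.0%. Wnt5b (2897 UMIs), Wnt6 (2174) and Wnt11 (1867) were found in 14.6%, 4.95% and 8.56% of cells. The remaining members were scarce, with 171 UMIs of Wnt2b, 148 of Wnt3, 82 of Wnt3a and 21 of Wnt9b. These counts of different genes are not scaled to length and rank the precision available for each ligand rather than its dose. In GRCm38 with the GENCODE M21 annotation, Wnt2 lies on the minus strand of chromosome 6 (17988940 to 18030585), Wnt11 on the plus strand of chromosome 7 (98835112 to 98855195), Wnt4 on chromosome 4 (137277489 to 137299726) and Wnt5a on chromosome 14 (28504750 to 28527448). Wnt5b on chromosome 6 (119432531 to 119544347) overlaps Fbxl14 on the other strand, a gene with 11835 UMIs, and Wnt2b on chromosome 3 (104945272 to 104961921) holds the intronic transcript Gm43846 with 984. The use of strand in the counting is not stated, so reads of such pairs cannot be told apart with certainty.

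The start regions of the ligands that were highest in heart cells are given as a description only, and no comparison below uses them. They are the 250 bases before the RefSeq start on the gene's strand (GRCm38.p6), the first of the pair of Wnt11 starts and the single Wnt2 start, with capitals marking matches to the motifs searched.
Wnt11, chr7:98834862-98835111, plus strand: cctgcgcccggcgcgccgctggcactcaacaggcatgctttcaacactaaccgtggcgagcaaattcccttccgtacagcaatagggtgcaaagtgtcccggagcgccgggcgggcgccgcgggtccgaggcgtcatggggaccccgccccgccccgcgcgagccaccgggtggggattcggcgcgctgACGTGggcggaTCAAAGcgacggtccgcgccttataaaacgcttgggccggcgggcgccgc
Wnt2, chr6:18030446-18030695, minus strand: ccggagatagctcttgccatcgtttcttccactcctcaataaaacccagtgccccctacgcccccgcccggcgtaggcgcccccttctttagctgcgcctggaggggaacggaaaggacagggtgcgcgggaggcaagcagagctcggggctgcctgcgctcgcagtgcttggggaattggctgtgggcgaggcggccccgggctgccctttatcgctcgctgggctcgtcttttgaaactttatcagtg
The motifs, searched on both strands, were the TCF/LEF core CTTTGA (reverse TCAAAG), the hypoxia-factor core ACGTG (reverse CACGT) and the GATA-factor motif AGATAA (reverse TTATCT). The Wnt11 window printed here held the first on its reverse strand and the second on its forward strand. The window of the other Wnt11 start and the Wnt2 window held none of the 3. Of 32851 such windows in the RefSeq table, 13.8% held CTTTGA, 16.6% ACGTG and 9.99% AGATAA. Of the 12 windows of the 9 members in that table, 2, 2 and 0 held them, so the members stood near the share of all promoters. A match is a run of letters only.

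To place the ligands, a cell was called positive for a lineage when at least 3 of 6 fixed marker genes had a UMI. This put 8488 cells in 1 lineage and 3448 in several, and left 2841 in none. Cells in several lineages were kept and doublets were not called. Levels are given as CPM, a gene's UMIs scaled to the total UMIs of the cells concerned. Red blood cells, which are not known as a source of Wnt ligands, were taken as the background of free RNA: 4.31% of the 2250 erythroid-marker cells had a UMI of any of the 10 ligands after every cell was thinned to 5000 UMIs, against 37.1% of all cells. Cells too shallow to be thinned, 365 from controls and 82 from mutants, did not enter these shares.

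**Figure D1:**
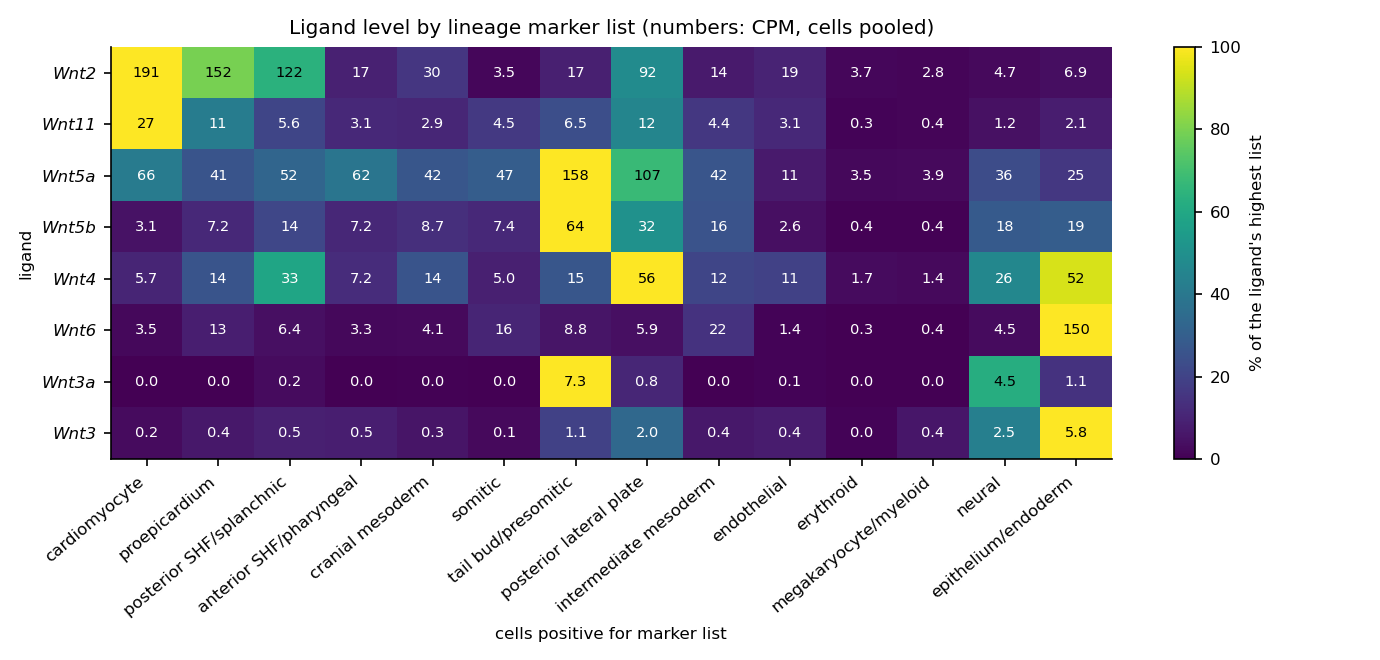
Level of 8 ligands (rows) in cells positive for each lineage marker list (columns), with CPM over pooled cells printed and colour giving the percent of that ligand's highest list. Wnt2 and Wnt11 peaked in cardiomyocyte-marker cells (191 and 27.0 CPM), Wnt5a, Wnt5b and Wnt3a in tail bud cells, and Wnt6 and Wnt3 in epithelial cells, with all stages pooled.

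Wnt2 and Wnt11 had their highest mean level over samples of all stages in cardiomyocyte-marker cells, but for Wnt2 this order held before E9.5 and not at E9.5. Wnt2 had 173 ± 78.8 CPM in cardiomyocyte-marker cells (SD, n = 18 samples with at least 20 such cells), 150 ± 41.3 in proepicardium and septum transversum cells (n = 9) and 126 ± 39.8 in posterior second heart field and splanchnic cells (n = 15). Posterior lateral plate cells had 91.1 ± 59.1 CPM (n = 12). At E8.0 and E8.5 the cardiomyocyte level was above the proepicardial one in 3 of 3 samples, the posterior second heart field in 8 of 8 and the lateral plate in 6 of 6. At E9.5 it was above them in 2 of 6, 4 of 7 and 2 of 6, so those lineages were not separated there. The 3 samples with more Wnt2 in the posterior second heart field were the E9.5 controls Bar4, Bar9 and Bar22. It was above cranial mesoderm (33.4 ± 12.7 CPM), anterior second heart field (20.3 ± 9.37) and somitic cells (3.42 ± 3.52) in 15 of 15 samples each. A Wnt2 UMI was found in 58.3% of cardiomyocyte-marker cells, at a median depth of 21521 UMIs. After thinning the share was 40%, against 1.51% of erythroid cells, whose median depth was 28474. Posterior second heart field cells held 47.6% of all Wnt2 UMIs and cardiomyocyte-marker cells 24.2%, the lists overlapping.

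Wnt11 was more clearly highest in cardiomyocyte-marker cells. It had 29.2 ± 15.0 CPM in cardiomyocyte-marker cells (n = 18), 11.3 ± 6.19 in posterior lateral plate and allantois cells (n = 12) and 11.1 ± 5.70 in proepicardial cells (n = 9). The cardiomyocyte level was the higher in 11 of 12 and in 9 of 9 of the samples that had both lineages. Lateral plate was above proepicardium in 4 of 6, so those 2 lineages were not separated. Cardiomyocyte-marker cells were 7.44% of all cells and held 34.9% of all Wnt11 UMIs.

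Wnt5a and Wnt5b were highest in posterior lineages, and Wnt3a was found mainly in tail bud and neural-marker cells. In tail bud and presomitic cells Wnt5a had 157 ± 28.2 CPM and Wnt5b 64.8 ± 7.36 (n = 5, all at E8.0), and in posterior lateral plate cells 110 ± 51.1 and 32.6 ± 11.6 CPM (n = 12). In the samples with both lineages, tail bud was above lateral plate in 5 of 5 for Wnt5b and in 3 of 5 for Wnt5a. These lists shared 111 cells, 55.8% of the tail bud and 14.1% of the lateral plate list, so their levels are not independent. Pooled E8.0 control cells had 165 CPM of Wnt5a in tail bud and 188 in lateral plate, but 195 and 179 without Bar29, so the Wnt5a order of these 2 lineages was not settled. Wnt5a was the most widely spread ligand, with means from 41.1 to 62.5 CPM in cardiomyocyte, proepicardial, anterior and posterior second heart field, cranial and somitic cells, and 12.3 ± 7.14 in endothelial cells. Wnt5b was low in cardiomyocyte-marker cells at 2.65 ± 1.93 CPM, where Wnt5a had 60.6 ± 25.2. Wnt3a reached 7.29 CPM in pooled tail bud cells and 4.54 in neural-marker cells, lists that held 54.9% and 32.9% of its UMIs. By sample it had 1.56 to 12.4 CPM in tail bud cells (n = 5) and 0 to 5.84 in neural-marker cells (n = 4), which overlapped. It was at 0 in cardiomyocyte-marker, proepicardial, intermediate mesoderm and megakaryocyte-marker cells.

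Wnt4, known for its part in kidney and gonad formation, had 55.5 ± 46.0 CPM in posterior lateral plate cells (n = 12) and 36.6 ± 33.2 in posterior second heart field cells (n = 15), the first being higher in 9 of 12 samples. In the 5 samples with tail bud cells the order of the second heart field and the tail bud was the other way, the former being higher in 1 of 5. Of the tail bud cells, 48.7% were also in the posterior second heart field list. Posterior second heart field cells held 48.1% of all Wnt4 UMIs, and the pooled level in epithelium-marker cells was 52.5 CPM. Wnt6, an ectodermal and somitic ligand, was highest by far in the 141 epithelium-marker cells, at 150 CPM pooled. Among mesodermal lists it had a mean of 14.7 ± 16.9 CPM in proepicardial cells (n = 9), carried by few cells, and 12.3 ± 10.6 in somitic cells (n = 15). The proepicardial level was the higher in 3 of 9 samples, the E8.0 control Bar26 and the E9.5 mutants Bar19 and Bar20. By sample the somitic level was 0 to 3.66 CPM at E8.0 and 5.75 to 33.3 at the later stages, with no overlap. The proepicardial median was 8.99 CPM, and 7 of 9 samples lay at 1.91 to 9.43. In Bar19 (37.1 CPM) 1 cell held 43 of 51 UMIs, leaving 6.06 CPM without it, and in Bar26 (50.1 CPM) 1 cell held 25 of 50, leaving 26.2. The 99 intermediate mesoderm cells, too few for values by sample, had 21.9 CPM pooled (60 UMIs). Wnt3 also peaked in epithelium-marker cells, at 5.83 CPM with all stages pooled. Posterior lateral plate cells held more of its UMIs (27.0% against 14.9%). At E8.0 they had 0 to 7.02 CPM of Wnt3 by sample. Of the 21 Wnt9b UMIs, 52.4% were in epithelium-marker, 33.3% in anterior second heart field and 23.8% in intermediate mesoderm cells, lists that overlap, and Wnt2b stayed at or under 1.09 CPM in every list. Epithelium- and neural-marker cells were 141 and 249 of the 14777 sorted cells.

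UMIs of several ligands were seen in few cells after thinning, which lowers each share, so these values do not bound how many cells transcribe several. In all, 28.8% of cells had a UMI of 1 of the 10 ligands, 7.03% of 2 and 1.24% of 3 or more. Any ligand was found in 71.4% of tail bud cells, 67.6% of posterior lateral plate cells and 63.3% of cardiomyocyte-marker cells, but in 15.2% of endothelial cells. Posterior lateral plate cells most often had 3 or more (6.74%). Within cardiomyocyte-marker cells Wnt2 was found in 27.8% of the cells with Wnt5a and in 43.9% of those without it, while Wnt11 was found in 16.2% and 9.59%. These are shares over pooled cells and carry no test.

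**Figure D2:**
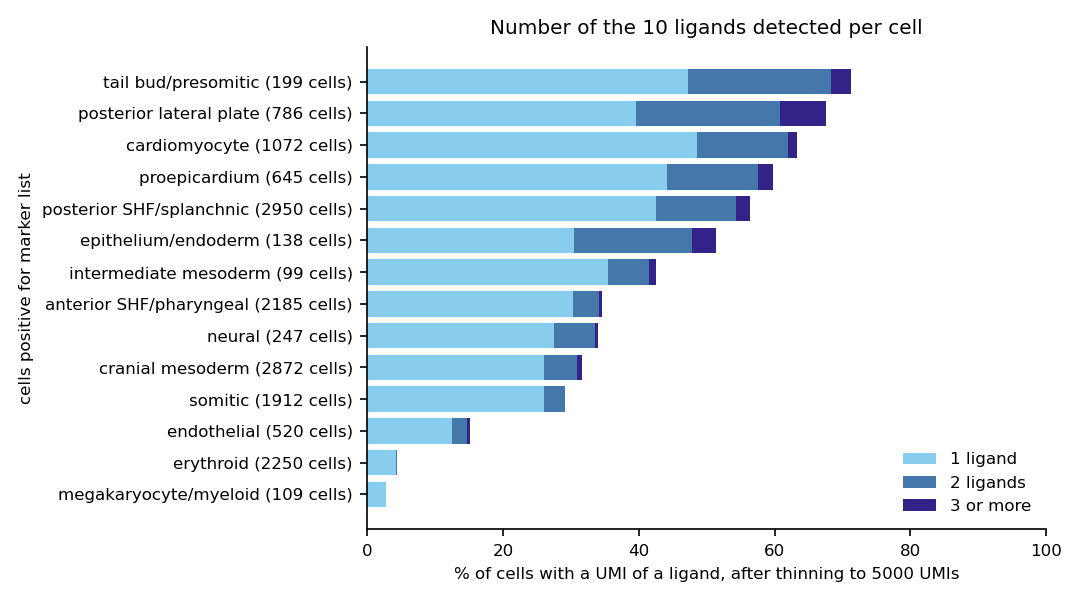
Percent of cells (horizontal axis) with a UMI of 1, 2 or 3 or more of the 10 ligands after thinning to 5000 UMIs, by lineage marker list with its number of cells. Tail bud, posterior lateral plate and cardiomyocyte-marker cells lie above 60%, while erythroid cells lie at 4.31%.

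The first comparison asked which ligands changed from E8.0 to E9.5. Wnt4 and Wnt11 rose and Wnt3 and Wnt5a fell, so that 4 of the 9 members tested passed at an adjusted p under 0.05, where 19.5% of all genes tested did. Wnt4 had 4.94, 4.95 and 7.44 CPM in the E8.0 controls and 7.11, 7.49 and 8.02 in the mutants. At E9.5 it ranged from 3.77 (median 15.6) to 25.5 in controls and from 6.47 (median 20.0) to 24.9 in mutants. The lowest E9.5 control (164 cells) and the lowest E9.5 mutant (57 cells) lay below or within the E8.0 range, and the other 9 samples lay above it. Its fitted log2 change was 1.57 (SE 0.29, edgeR adjusted p = 0.000546). Wnt11 rose by 0.60 (SE 0.18, adjusted p = 0.019), Wnt3 fell by 1.51 (SE 0.38, adjusted p = 0.00672) and Wnt5a fell by 0.36 (SE 0.11, adjusted p = 0.0215). Wnt3 had 0.407 to 1.17 CPM in the E8.0 controls and 0.369 to 1.72 in the mutants, from 4 to 31 UMIs a sample, and medians of 0.322 and 0.364 CPM at E9.5, so that the stages overlapped. Wnt2 (-0.44, SE 0.17, adjusted p = 0.0753) and Wnt5b (-0.40, SE 0.14, adjusted p = 0.0534) did not pass. The Wnt5a call was lost in run 1 alone (-0.27, adjusted p = 0.136), with run as a term (-0.26), without run 3 (-0.31) and without any 1 of the E8.0 samples Bar24, Bar28 and Bar29 (-0.28 to -0.34). In limma on log2 of mean CPM no member passed.

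In control cells the Wnt4 levels differed by stage in several lineages. Pooled levels at E8.0, E8.5 and E9.5 were 8.19, 78.0 and 96.1 CPM in posterior lateral plate cells and 7.16, 51.6 and 46.2 in posterior second heart field cells, with 7.76, 25.7 and 12.9 in cranial and 2.79, 7.05 and 3.96 in cardiomyocyte-marker cells. Endothelial cells had 3.86 CPM at E8.0 and 20.4 at E9.5, where the control samples were spread at 7.64, 23.1 and 34.2. Wnt11 in control cardiomyocyte-marker cells had 15.1, 37.0 and 28.3 CPM. Wnt5a was highest at E8.0 in lateral plate (188, 61.7 and 92.0 CPM) and cardiomyocyte-marker cells (98.8, 35.2 and 48.6) and lowest at E8.0 in somitic cells (31.4, 39.1 and 51.7). Wnt2 in lateral plate cells had 20.5, 193 and 104 CPM against 219, 223 and 117 in cardiomyocyte-marker cells. Wnt6 in somitic cells had 2.96, 23.6 and 17.6 CPM, with 2.55 at E8.0 without Bar29. These lineage values rest on 89 to 1286 pooled cells a stage and were not tested. Of all tail bud cells, 55.8% were also in the lateral plate list. Tail bud cells averaged 4.78% of control cells at E8.0 and 0.479% at E9.5. A changed make-up of the lateral plate list and a change within its cells therefore cannot be told apart. Nearly all E8.5 control cells came from 1 sample, Bar3 (2508 of 2542), so the E8.5 values have no replicate. Without Bar29 the E8.0 levels of Wnt4 were 7.67 CPM in lateral plate, 5.96 in posterior second heart field, 5.01 in cranial, 3.56 in cardiomyocyte-marker and 2.37 in endothelial cells. Wnt5a then had 179, 74.4 and 31.4 CPM in lateral plate, cardiomyocyte-marker and somitic cells, Wnt11 14.7 in cardiomyocyte-marker cells, and Wnt2 16.7 in lateral plate and 226 in cardiomyocyte-marker cells.

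Between E8.0 and E8.5, 3 of 9 members passed (15.4% of all genes): Wnt4 rose (1.49, SE 0.37, edgeR adjusted p = 0.0111) and Wnt3 (-2.89, SE 0.67, adjusted p = 0.008) and Wnt5a (-0.76, SE 0.17, adjusted p = 0.00546) fell. The fitted differences of Wnt11 (0.70, SE 0.24, adjusted p = 0.0518) and Wnt2 (0.62, SE 0.25, adjusted p = 0.085) missed the threshold. The E8.0 and E8.5 samples lie in different runs, linked only through E9.5, and with run as a term no member passed. One E8.5 control, with 34 cells, had no Wnt4 UMI. The Wnt3 value rests on 8 UMIs at E8.5, all in Bar3, and ranged from -6.70 without Bar3 (adjusted p = 0.057) to -2.48 without Bar1 (adjusted p = 0.0674), the call being lost in both. None passed without the E8.5 mutant Bar1, 1 without the E8.5 control Bar3 and 5 without the E9.5 control Bar4.

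The genotype comparison asked whether the ligand transcripts differed between Wls fl/fl and Wls fl/+ embryos. Wnt11 was higher in mutants, and it was the 1 member of 9 tested that passed over all stages, where 10.2% of all genes did. Its E8.0 levels were 3.06, 3.84 and 4.19 CPM among controls and 5.37, 5.49 and 5.62 among mutants, with no overlap. E8.5 gave 1.15 (1 UMI) and 5.27 CPM in controls and 9.35 in the mutant. At E9.5 the controls ranged from 3.42 (median 4.48) to 6.52 CPM (n = 5) and the mutants from 6.40 (median 7.63) to 9.39 (n = 6), so that the lowest mutant lay just under the highest control. In runs 1 and 3 the groups did not overlap at E9.5. Controls had 4.48 and 5.91 CPM against 7.2, 9.35 and 9.39 in run 1, and 3.42 and 3.77 against 6.40 and 7.71 in run 3. Run 2 had 6.52 in 1 control and 7.54 in 1 mutant, Bar5 of 57 cells, and 2 single values cannot overlap. How many of all genes separate so, at E8.0 or within runs at E9.5, was not counted. The fitted log2 fold change was 0.66 (SE 0.14, edgeR adjusted p = 0.00461), and 10 of 10 mutants lay above the control median of their stage. The call was lost without run 1 (0.81, adjusted p = 0.18) and in limma (0.82, adjusted p = 0.152), and held without each sample in turn. Without Bar29, the highest of the E8.0 controls at 4.19 CPM, it was 0.70 (adjusted p = 0.00321).

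**Figure D3:**
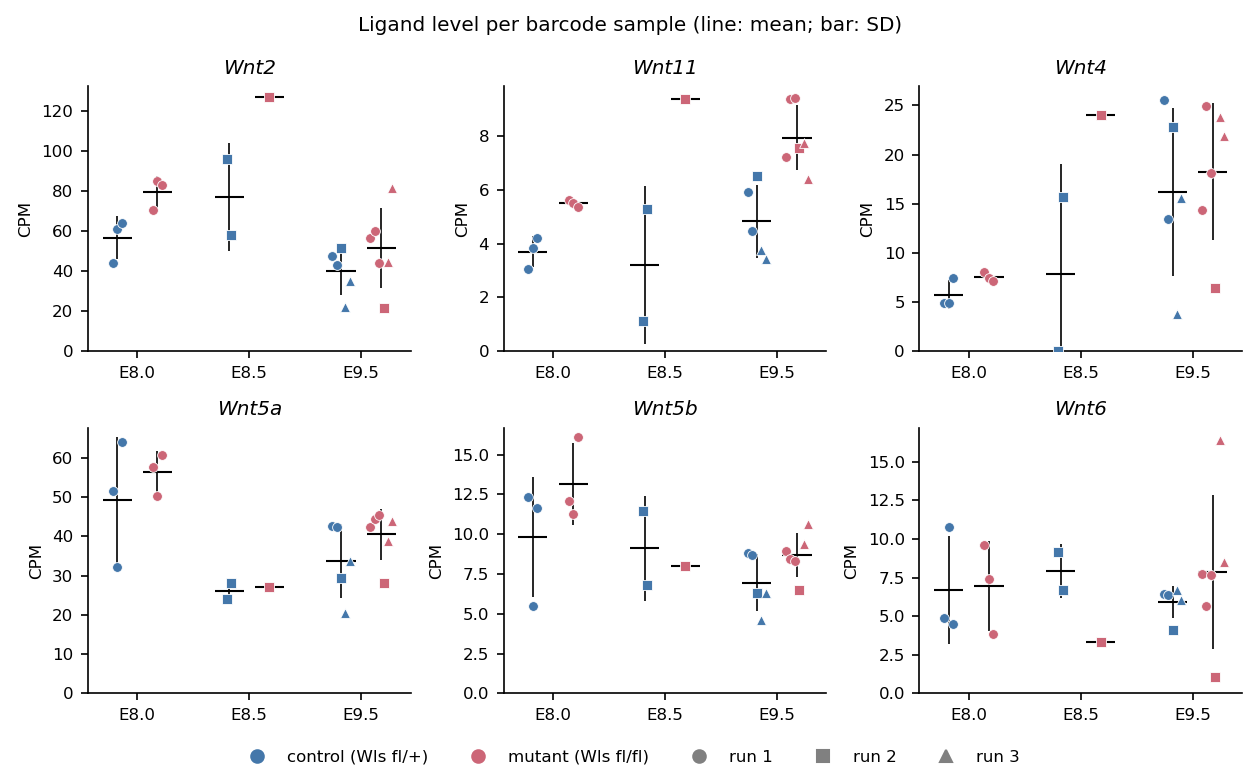
CPM of 6 ligands (vertical axis, from 0) in each barcode sample by stage (horizontal axis), in control and mutant, with marker shape giving the run, the line the mean and the bar the SD. Wnt11 and Wnt2 lie higher in every E8.0 mutant than in any E8.0 control, while Wnt5a and Wnt6 overlap. How many of all genes separate so at E8.0 was not counted.

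At E9.5 alone Wnt11 was again the 1 called member of 6 tested (10.3% of all genes), with a log2 fold change of 0.77 (SE 0.17, edgeR adjusted p = 0.0127). It missed the threshold without the control Bar23 (0.65, adjusted p = 0.0925), without run 3 (0.72, adjusted p = 0.0517), without run 1 (0.80, adjusted p = 0.362) and in limma (0.95, adjusted p = 0.373). In run 1 alone it passed (0.77, adjusted p = 0.0483). The E9.5 controls of that run were female and the mutants Bar19 and Bar21 male, so sex was not balanced between the genotypes. At E8.0 no member of 7 passed (0.0244% of all genes), and 2, Wnt11 and Wnt2, had an unadjusted p under 0.05. DESeq2 and limma also called none. Wnt11 differed there by 0.48 (SE 0.16, edgeR adjusted p = 0.496). Without Bar29, where 0.0597% of all genes passed, no member did either, and Wnt11 was at 0.55 (adjusted p = 0.22), Wnt2 at 0.48 (adjusted p = 0.196) and Wnt4 at 0.49 (adjusted p = 0.204). With all E8.0 samples Wnt4 was at 0.30 (SE 0.18), and it ranged from 0.21 to 0.49 without single samples. At E8.5, with its single mutant and a spread shared with the other stages, none of 9 passed (0.178% of all genes), 1 had an unadjusted p under 0.05, and DESeq2 and limma called none. The difference between the E9.5 and E8.0 effects passed for none of 9 members (0.464% of all genes). None had an unadjusted p under 0.05 in edgeR, DESeq2 and limma called none either, and for Wnt11 the difference was 0.29 (SE 0.25, adjusted p = 0.714; 0.17 to 0.37 without single samples).

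Cardiomyocyte-marker cells, the richest in Wnt11, were 10.1 ± 3.39% of control and 14.2 ± 2.07% of mutant cells at E8.0 (n = 3 each), 1.97% (0 and 3.95) and 13.3% at E8.5, and 7.53 ± 3.79% (n = 5) and 7.82 ± 4.45% (n = 6) at E9.5. Erythroid cells, taken as background above, were 22.5 ± 11.7% and 8.98 ± 5.18% at E8.0. In both shares Bar29 lay within the mutant range: it had 13.9% cardiomyocyte-marker and 9.15% erythroid cells, against 7.36% and 9.12%, and 27.8% and 30.6%, in the other E8.0 controls. Without blood-marker cells the Wnt11 difference was 0.62 over all stages (adjusted p = 0.0104), 0.33 at E8.0 and 0.85 at E9.5 (adjusted p = 0.00338). Without neural- and epithelium-marker cells it was 0.71 (adjusted p = 0.00174). In sums over all cells, more Wnt11-expressing cells and more Wnt11 per cell cannot be told apart.

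Wnt2 missed the threshold over all stages, with a log2 fold change of 0.41 (SE 0.15, edgeR adjusted p = 0.096). E8.0 levels were 44.4, 61.3 and 64.4 CPM in controls and 70.7, 83.2 and 85.2 in mutants, with no overlap. The share of all genes without such overlap was not counted. At E8.5 they were 58.0 and 96.2 CPM against 127. At E9.5 the controls ranged from 22.2 (median 43.0) to 51.8 CPM and the mutants from 21.6 (median 50.6) to 81.7, overlapping through most of the range. The E8.0 difference was 0.41 (SE 0.13, adjusted p = 0.496) and fell to 0.22 without blood-marker cells. Wnt2 passed over all stages in DESeq2 (0.45, adjusted p = 0.032), with DESeq2 size factors in edgeR (0.46, adjusted p = 0.0437), without run 2 (0.44, adjusted p = 0.0303), without neural- and epithelium-marker cells (0.44, adjusted p = 0.0448) and without either of the E9.5 samples Bar4 (0.52) and Bar5 (0.50). Without Bar29, the E8.0 control with 64.4 CPM, it was 0.43 (adjusted p = 0.09).

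The other members tested did not pass in either direction. Over all stages Wnt4 differed by 0.27 (SE 0.23, edgeR adjusted p = 0.548), Wnt5b by 0.21 (SE 0.13), Wnt5a by 0.10 (SE 0.10) and Wnt2b by -0.29 (SE 0.28). The fitted values of Wnt3, Wnt3a and Wnt6 were 0.10, 0.05 and 0.00, with SEs of 0.37, 0.69 and 0.22. Single samples moved these small values by more than 1.5 times or across 0. Leaving out 1 sample gave 0.18 (without Bar1) to 0.42 (Bar22) for Wnt4, 0.11 (Bar26) to 0.27 (Bar24) for Wnt5b, 0.03 (Bar26) to 0.16 (Bar3 or Bar29) for Wnt5a and -0.38 (Bar25) to -0.11 (Bar21) for Wnt2b. It gave -0.22 to 0.26 for Wnt3, -0.39 to 0.31 for Wnt3a and -0.14 to 0.18 for Wnt6. The median over the 9 members was 0.10 against 0.02 over all genes. Wnt9b, with 21 UMIs, was not tested in any comparison. Wnt5a at E9.5 had 33.7 ± 9.32 CPM in controls (n = 5) and 40.5 ± 6.50 in mutants (n = 6), with overlapping ranges. Wnt6 in the E9.5 mutants ranged from 1.08 to 16.4 CPM and took in every E9.5 control.

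The marker lists share cells and barcode samples, so their fits are not independent. Within lineages the fitted Wnt11 level was higher in mutants in 6 of 7 marker lists, and it passed in 1, cranial mesoderm. There 2 of 6 members were called, Wnt2 and Wnt11, where 7.09% of all genes were. Wnt11 in cranial-marker cells had 1.08 to 3.34 CPM in 8 controls (median 2.08) and 2.69 to 6.58 in 7 mutants (median 4.09), with a log2 fold change of 0.81 (SE 0.23, edgeR adjusted p = 0.0449). These levels rest on 2 to 44 UMIs a sample. Wnt2 had 12.7 to 33.3 CPM (median 27.0) and 25.4 to 61.4 (median 44.9), with 0.67 (SE 0.18, adjusted p = 0.0347). Both calls were lost without run 2 (0.70 for Wnt2 and 0.83 for Wnt11), with the male share as a covariate (0.70 and 0.86) and with 4 of 6 markers required (0.27 and 1.19). The Wnt2 call was also lost with 2 of 6 markers (0.41), and the Wnt11 call in limma (0.59) and with no filter on low counts (0.76). DESeq2 called 1 pair of member and lineage in all, so it did not make both of these calls. Without run 1 the cranial list had too few samples to be fitted. In cells of the cranial list alone Wnt2 was at 1.07 (adjusted p = 0.12) and Wnt11 had no fitted value. Leaving out single samples ended the Wnt2 call for 9 of 15 and the Wnt11 call for 10 of 15, with values over all 15 of 0.51 to 0.76 and 0.66 to 0.87. Both calls ended without any 1 of Bar1, Bar3, Bar19, Bar20, Bar21, Bar22, Bar23, Bar24 and Bar27, and the Wnt11 call also without Bar28. The cranial list took in 41.8% of the anterior second heart field cells, which were 31.9% of it. Posterior second heart field and proepicardial cells, both richer in Wnt2, were 17.6% and 3.06% of the cranial list.

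**Figure D4:**
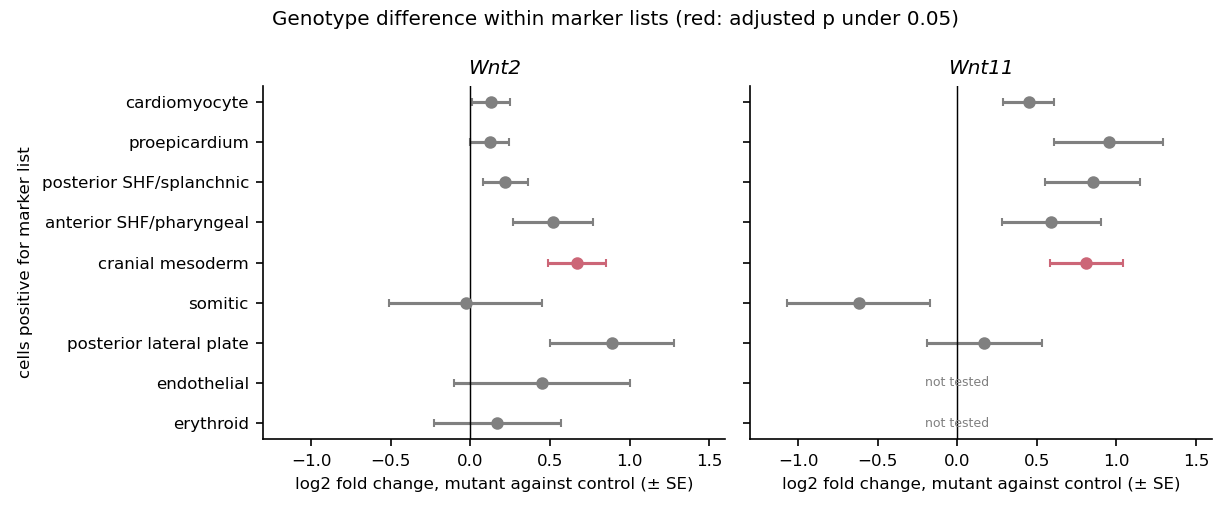
Log2 fold change of mutant against control (horizontal axis, bars ± SE) for Wnt2 and Wnt11 in cells positive for each marker list (vertical axis), red where the adjusted p was under 0.05. Wnt11 lies above 0 in 6 of 7 lists and Wnt2 in 8 of 9, and the cranial list alone holds calls. The lists share cells and samples, so their values are not independent.

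In proepicardial cells Wnt11 had 7.02 CPM in the E8.0 control, 10.0 in the E8.5 control and 11.4, 3.91 and 2.32 (1 UMI) in the E9.5 controls, against 15.2 in the E8.5 mutant and 16.0, 17.2 and 17.0 in the E9.5 mutants. The groups did not overlap, but the difference of 0.95 (SE 0.34, edgeR adjusted p = 0.215) did not pass, and it was 0.56 without Bar23 and 1.38 without Bar22. The difference was 0.85 (SE 0.30, adjusted p = 0.184) in posterior second heart field cells, 0.59 (SE 0.31; 0.29 without Bar1 and 0.30 without Bar3) in anterior second heart field cells and 0.45 (SE 0.16, adjusted p = 0.154) in cardiomyocyte-marker cells, or 0.04 in those positive for that list alone. In cardiomyocyte-marker cells controls had 7.36 to 39.8 CPM (median 24.4, n = 9) and mutants 14.5 to 67.4 (median 28.9, n = 9). In posterior lateral plate cells the Wnt11 difference was small, at 0.17 (SE 0.36). In somitic cells Wnt11 pointed the other way, at -0.62 (SE 0.45), with -1.24 without Bar21 and -0.30 without Bar20. Wnt2 in cardiomyocyte-marker cells was near even, at 163 ± 60 CPM in controls and 182 ± 96.8 in mutants (0.13, SE 0.12), and the difference ranged from 0.04 without Bar1 to 0.20 without Bar23.

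Over the 9 lineages with enough samples, 48 member and lineage pairs were tested, 2 were called and 9 had an unadjusted p under 0.05. No member was called in the other 8 lineages, where the share of all genes called was 2.49% in cardiomyocyte-marker, 0.00968% in endothelial, 0.0257% in erythroid, 2.05% in anterior second heart field, 0.0256% in posterior second heart field, 0.597% in proepicardial, 5.76% in somitic and 0.0261% in posterior lateral plate cells. With no filter on low counts 5 pairs were called and with 2 of 6 markers 4, settings to which the shares of all genes above do not apply. The pairs below control with an unadjusted p under 0.05 were Wnt5a in posterior lateral plate cells (-0.55, SE 0.18, edgeR adjusted p = 0.422) and Wnt6 in anterior second heart field cells (-1.26, SE 0.44, adjusted p = 0.127). The anterior second heart field list took in 37 epithelium-marker cells, 26.2% of the list richest in Wnt6. Their part in the Wnt6 difference was not tested.

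Whether the cells that transcribe a ligand had lost Wls was read from the same cells, after thinning. Of the Wnt2-positive cells, 25.4% had a Wls UMI in controls (343 of 1352; exact binomial 95% interval 23.1 to 27.8) and 1.47% in mutants (13 of 885; 0.784 to 2.50). For Wnt11 the shares were 30.0% (23.9 to 36.5) and 2.42% (0.664 to 6.09), and for Wnt5a 23.7% and 3.53%. Wnt6-positive cells had 24.4% in controls (49 of 201) but 13.9% in mutants (14 of 101; 7.79 to 22.2). For Wnt4 they were 27.7% and 8.09%, and of the few Wnt3a-positive cells 4 of 9 and 4 of 7 had a Wls UMI. Cells without a UMI of the ligand also had the lower share in mutants: without Wnt2 the shares were 18.3% in controls and 3.97% in mutants, without Wnt11 19.1% and 3.55%, without Wnt5a 18.5% and 3.51%, and without Wnt6 19.2% and 3.29%. In erythroid cells they were 2.68% and 0.617%. Without Bar29 the control shares were 26.6% of Wnt2-positive, 30.7% of Wnt11-positive, 24.1% of Wnt5a-positive, 24.2% of Wnt6-positive and 27.5% of Wnt4-positive cells. The intervals cover counting error over pooled cells only, and no test was made.

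**Figure D5:**
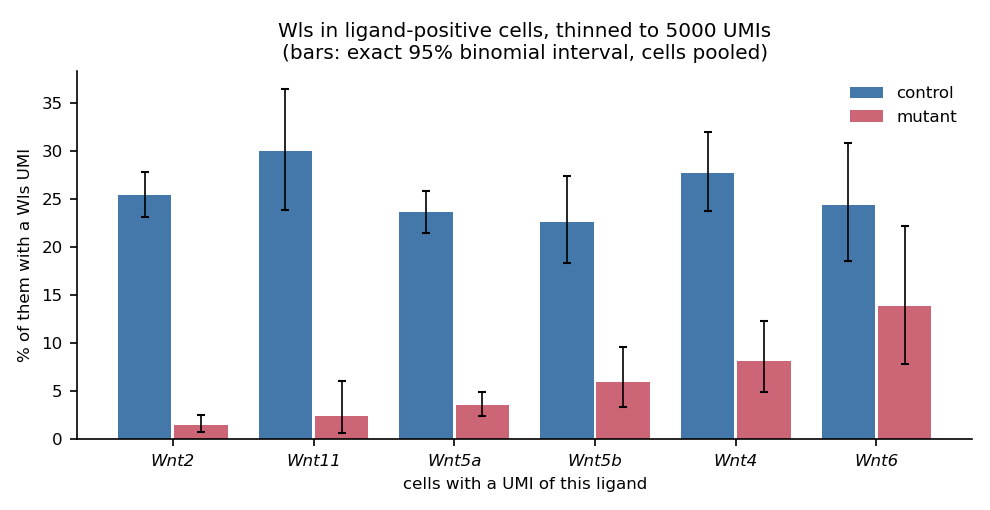
Percent of cells with a UMI of each ligand (horizontal axis) that also had a Wls UMI (vertical axis, from 0), in pooled control and mutant cells thinned to 5000 UMIs, with exact 95% binomial intervals. In mutants the Wnt2 and Wnt11 bars are at 1.47% and 2.42%, and the Wnt6 bar is at 13.9%.

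The lineages differed in the same way. Wls was at 65.3 ± 13.7 CPM in control and 5.12 ± 4.62 in mutant cardiomyocyte-marker cells (n = 9 each), with a log2 fold change of -3.57 (SE 0.27, edgeR adjusted p = 3.99e-08). It was at -3.31 (SE 0.30, adjusted p = 0.00183) in proepicardial and -2 in both somitic (SE 0.22, adjusted p = 0.000123) and posterior lateral plate cells (SE 0.24, adjusted p = 0.0104). Without Bar29 the cardiomyocyte, somitic and lateral plate values were -3.70, -1.93 and -2.09. E8.0 tail bud cells had 99.1 and 50.3 CPM of Wls in controls, the second being Bar29, against 57.5, 79.4 and 17.7 in mutants, which overlapped with Bar29 only. Neural-marker cells had 96.7 CPM in controls and 114 in mutants and epithelium-marker cells 111 and 112 over pooled cells, and the 1 mutant sample with at least 20 neural-marker cells had 54.5. Among all lists, tail bud cells had the highest pooled Wnt3a level and epithelium-marker cells the highest Wnt6 level. No test was made there, and the deleted part of Wls was not located, so these counts do not show whether an allele had recombined.

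The rest of the pathway was read from lists of genes, over all stages and against the same 10.2% of genes called. Of 12 secretion genes, 1 rose, Gpc3 (0.28), a surface glypican that binds Wnt, and 2 fell, Wls and Tmed5 (-0.29), a cargo receptor of the early secretory pathway, and the list's median was -0.04. Of 16 receptor genes only Fzd4 rose (0.30, SE 0.09, edgeR adjusted p = 0.0309), with a median of 0.08. Of 14 antagonists 2 rose, the secreted Frizzled decoy Sfrp1 (0.53, SE 0.11, adjusted p = 0.00609) and Dkk3 (0.53, SE 0.16, adjusted p = 0.0443), and none fell, with a median of 0.22. Of 16 feedback and target genes of beta-catenin signalling 1 fell, the cyclin Ccnd1 (-0.33, SE 0.09, adjusted p = 0.0259), and none rose, with a median of -0.07. None of the 6 tested among the other 9 ligand genes passed. Without Bar29, where 11.8% of all genes passed, Gpc3 (0.32), Tmed5 (-0.31), Fzd4 (0.34), Sfrp1 (0.58), Dkk3 (0.57) and Ccnd1 (-0.31) passed again.

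The genes whose pattern was most like that of a ligand were found by Pearson correlation of log2(CPM + 5) over 28 control profiles of lineage by stage, among 13173 genes. The profiles share runs, depth and cells, and the values are descriptions. Wnt2 was nearest to Gata6, a cardiac and endodermal transcription factor (0.927), then Tmem108 (0.916) and Nos1ap (0.909). Wnt11 was nearest to Stbd1, a glycogen-binding protein (0.912), then Alpk3 (0.889) and Tnni2 (0.884), the last a troponin subunit of striated muscle. Wnt5b was nearest to Hoxaas3 (0.955), Scube3 (0.945) and Lhpp (0.918), and Wnt5a to Cdc14b (0.898), Ptgfrn (0.893) and Sall4 (0.888). Wnt4 followed Thsd7a (0.853), Mbnl3 (0.842) and 2610528A11Rik (0.83). For Wnt6 the nearest were Tsen54 (0.706), 2700099C18Rik (0.695) and Xlr3b (0.692), all looser. Without Bar29, over 26 profiles, Gata6 and Stbd1 were still the nearest to Wnt2 and Wnt11 (0.927 and 0.921), while Scube3 came first for Wnt5b (0.936), Efnb1 for Wnt5a and Hoxb5os for Wnt4. The 3 genes named for Wnt6 fell to 0.537, 0.614 and 0.414 and were no longer near it. Wnt2b, Wnt3, Wnt3a and Wnt9b stayed below 5 CPM in each profile and were not ranked.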

How the data were processed

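The authors mapped 10x v3 reads with kallisto and bustools (0.46.1 in the submitters' processing notes, which also name Cell Ranger and GRCm38) and then assigned cells to barcodes, per the labels. The deposited matrix holds raw UMI counts of 51923 genes in 14777 cells. Filters on cells are not given in the sources used here. Run, barcode, stage and genotype come from the authors' per-cell table, whose run date differs from the title by 1 day and was matched by run number.

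The members and gene lists were chosen with earlier results of these data known. Counts were summed per barcode sample and tested with edgeR 4.0.16 (R 4.3.3): filterByExpr, TMM, two-sided quasi-likelihood test, Benjamini-Hochberg adjustment over all genes at 0.05. Models held stage and genotype, with run as a further term in genotype comparisons where it varied. Within lineages, samples of at least 20 positive cells entered. All members, Wls, the called list genes (up to 4 a list) and the 3 genes nearest to each member were named. Alternatives were DESeq2 1.42.0, limma 3.58.1 on log2(CPM + 1), other filters, subsets and marker thresholds. The fits were tested on simulated counts.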

Additional observations from a re-analysis of the deposited data

Results flagged for a closer look

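In 20 groups of 5 or 6 barcode samples of at least 20 cells, 3 samples stood far from the nearest of the others relative to the range of their group, where chance gives about 1 in 20 for continuous values. That rate does not hold for the first 2 below, which rest on 3 UMIs or fewer. Wnt3 was at 1.26 CPM in the E9.5 control Bar7, from 3 UMIs in 164 cells, against 0.322 CPM or less in the other 4 controls. Wnt3a was at 1.08 CPM in the E9.5 mutant Bar5, from 1 UMI in 57 cells. Wnt6 was at 4.12 CPM in the E9.5 control Bar4, from 60 UMIs in 608 cells, and lay below the other controls (6.07 to 6.70 CPM).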

How the results depend on the processing

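Wnt2, Wnt11 and Wnt4 kept their direction in every genotype fit over all stages, and none of the settings called a member at E8.0, at E8.5 or in the difference between stages. Over all stages the number of members called was 1, and it was 2 with DESeq2 size factors, in DESeq2, without run 2 and without neural- and epithelium-marker cells, 0 in limma and without run 1, and 1 to 2 without single samples. At E9.5 it was 0 in limma, without run 1, without run 3 and in run 3 alone, and 0 to 1 without single samples. Run 3 alone held the mutants Bar8 and Bar10 and the controls Bar7 and Bar9 at E9.5, too few samples to decide. Run 2 alone had Bar5 as its only E9.5 mutant, so no count is given for it. Run subsets alone were chosen after seeing the data. For E9.5 against E8.0 it was 0 in limma and 3 to 5 without single samples. For E8.5 against E8.0 it was 5 in DESeq2, 0 in limma and with run as a term, and 0 to 5 without single samples. Of the lineage pairs, 2 were called in the fit as reported, 1 in DESeq2 and in limma, 5 with no filter, 4 with 2 of 6 markers, 0 without run 1 (where the cranial list could not be fitted), without run 2, with the male share, with 4 of 6 markers and in cells of exactly 1 list, and 0 to 2 without single samples. Signs turned for Wnt2b over all stages (0.11 in limma, 0.01 with the male share) and for Wnt2 at E9.5 in run 2 alone (-0.57), where Bar5, of 57 cells, was the only mutant. At E8.0 they turned with the male share for Wnt3 (-0.51), Wnt4 (-0.45), Wnt5a (-0.69), Wnt5b (-0.15) and Wnt6 (1.42), for Wnt5a without blood-marker cells (-0.07) and for Wnt6 in limma (0.00). The male-share fit at E8.0 rests on the mixed sample Bar29 (53.1% male). The other controls were 2.16% and 2.34% male and the mutants 98.3% to 99.1%, so that fit cannot separate sex from genotype. Without single samples at E8.0, Wnt3 ranged from -0.40 to 0.56, Wnt5a from -0.10 to 0.32 and Wnt6 from -0.34 to 0.50. The cause of these changes was not tested. Comparisons that use E8.0 could not be fitted without run 1 (nor E8.5 ones without run 2), apart from genotype over all stages, and the E8.5 genotype contrast could not be fitted without its single mutant. No paired analysis was possible because the barcode samples carry no replicate numbers shared between groups. Depth limits Wnt2b, Wnt3, Wnt3a and Wnt9b most, at 171 UMIs or fewer each.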

Other observations

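At E9.5 alone more of the Wnt antagonist list was called than over all stages, and in both directions. Of 11 antagonists tested, 3 were higher in mutants, Dkk2 (log2 fold change 0.98, SE 0.17, edgeR adjusted p = 0.00311), Dkk3 (0.90, SE 0.22, adjusted p = 0.0181) and Sfrp1 (0.61, SE 0.14, adjusted p = 0.013), and 1 was lower, the Frizzled decoy Frzb (-0.69, SE 0.19, adjusted p = 0.0337). Of 15 feedback and target genes, 2 were lower, Ccnd1 (-0.45, SE 0.08, adjusted p = 0.00332) and the feedback inhibitor Nkd2 (-0.89, SE 0.18, adjusted p = 0.00804), and none was higher. The share of all genes called there was 10.3%. Dkk2, Frzb and Nkd2 were named after their values were seen.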
